A study of Mus musculus with 12 samples.

Results

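Long noncoding RNAs are transcribed like messenger RNAs but are not translated into a known protein. The 7 described here are Malat1, Neat1, Miat, Sox2ot, Rmst, Pantr1 and Gas5, taken by name from the gene symbols of the deposited tables, and they are 7 of the 45792 genes measured. Malat1 and Neat1 are retained in the nucleus, Malat1 in nuclear speckles, which store splicing factors, and Neat1 as the scaffold around which paraspeckles assemble. Miat, also called Gomafu, forms nuclear spots of its own in neural cells and carries a repeat that matches the intron branch point sequence. Sox2ot, Rmst and Pantr1 are transcribed in the developing nervous system, and Sox2ot and Pantr1 lie beside genes of neural transcription factors. Gas5 is a host gene of small nucleolar RNAs (snoRNAs), and its spliced RNA is known for building up when growth slows.

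The libraries came from primary neural stem cells (NSCs) of the neonatal mouse forebrain, at the second passage, 1 culture per library, made from total RNA after removal of ribosomal RNA. Ncf1 encodes a cytosolic subunit of the Nox2 oxidase, which makes reactive oxygen species, and Igfbp2 is a secreted binding protein of insulin-like growth factors. The 3 groups of 4 libraries were WT NSCs, Ncf1-/- NSCs given vehicle, and Ncf1-/- NSCs given recombinant mouse Igfbp2 (100 ng/ml on the labels, while the study's methods state a lower dose). The mutant lacks Ncf1 in the whole animal and was backcrossed to C57BL/6J, treatment began 48 h after plating, and RNA was taken 48 h later. The comparison of vehicle-treated Ncf1-/- with WT asks what loss of Ncf1 changed, and that of Igfbp2-treated with vehicle-treated Ncf1-/- asks what Igfbp2 changed in the mutant. The comparisons share libraries and are not independent of each other.

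Ncf1 itself was too low to check the genotype, at 2, 3, 7 and 4 counts in WT, 4, 4, 2 and 2 in vehicle-treated and 1 in each Igfbp2-treated library. Several properties of the libraries moved with the groups. Expected counts summed to between 18201622 and 34086554 per library. The neural stem cell markers summed to 5020 to 5722 CPM (counts relative to a fixed library total) in vehicle-treated and 5369 to 5725 in Igfbp2-treated Ncf1-/- libraries, against 1477, 1626, 5863 and 2491 in WT replicates 1 to 4. That sum was carried by Vim (means of 1847, 4040 and 3956 CPM in WT, vehicle-treated and Igfbp2-treated NSCs). Of its 9 genes 2 were higher (Nes and Hes1) and 5 lower (Sox2, Pax6, Msi1, Hes5 and Prom1) with loss of Ncf1 (edgeR, median log2 fold change -0.43), where 28.9% and 28.2% of all genes were. Markers of the oligodendrocyte lineage summed to 11437, 11942, 3410 and 7240 CPM in the WT libraries and to between 2189 and 2357 in all 8 Ncf1-/- libraries, so that WT replicate 3 stood apart from the other WT libraries. The 4 Y-linked genes summed to 105 to 116 CPM in vehicle-treated and to 7.79 to 9.18 CPM in Igfbp2-treated Ncf1-/- libraries, although the study describes same-numbered cultures of these groups as coming from the same animal. WT replicate 4 was also low, at 6.46 CPM, against 107 to 118 in WT replicates 1 to 3. A second sample sheet among the study's supplementary files lists the library number of WT replicate 4 as apocynin-treated WT. It was kept as WT as labelled, and without it 4 of the 7 RNAs, rather than 5, were called between vehicle-treated Ncf1-/- and WT, and 4 between Igfbp2-treated Ncf1-/- and WT, as with it. Treatment with Igfbp2 and the difference in Y-linked RNA therefore cannot be told apart. Short structural RNAs made up 56.0% to 60.3% of the transcript abundance (TPM, which sums to a fixed total per library) in vehicle-treated and 62.1% to 72.3% in Igfbp2-treated libraries (two-sided exact permutation test, p = 0.0286, the smallest that 4 against 4 can give). The mean fragment length was 172 to 191 bases and 163 to 169 bases in the same groups (exact permutation test, p = 0.0286). Their part in the results below was not tested.

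The sequences shown first are those for which these RNAs are best known, read from GENCODE M21 on GRCm38. Malat1 (ENSMUSG00000092341) lies at chr19:5795690-5802672 on the minus strand and Neat1 (ENSMUSG00000092274) at chr19:5824708-5845478 on the same strand, 22035 bases away. Both are known to end in a structure in which U-rich stretches fold around an A-rich tract and which stands in for a poly(A) tail. The 100 bases that end with the A-rich tract are given 5′ to 3′, with each stretch of at least 8 bases shared by both RNAs in capitals.

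Malat1 (chr19:5795982-5796081, minus strand): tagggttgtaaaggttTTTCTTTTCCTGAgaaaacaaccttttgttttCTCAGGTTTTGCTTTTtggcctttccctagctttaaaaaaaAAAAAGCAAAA
Neat1 (chr19:5824708-5824807, minus strand): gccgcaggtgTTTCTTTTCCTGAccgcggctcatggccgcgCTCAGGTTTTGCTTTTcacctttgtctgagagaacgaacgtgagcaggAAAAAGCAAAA

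The windows shared 3 stretches, of 13, 16 and 11 bases, in the same order. The Neat1 window closed the longest annotated transcript (20771 bases), which is the one that builds paraspeckles, whereas the Malat1 window stopped 292 bases before the annotated end of its 6983-base transcript. The A-rich stretch AAAAAGCAAAA was present on the transcript strand of 77 of 18930 long noncoding transcripts (0.407%), and in the last 100 bases of 8 of them (0.0423%).

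Miat (ENSMUSG00000097767, chr5:112213228-112229395, minus strand) carries the heptamer TACTAAC, the branch point sequence that the splicing factor SF1 binds. Bases 5178 to 5234 of its 8758-base transcript hold 3 of the 6 copies, in capitals.

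Miat (chr5:112216754-112216810, minus strand): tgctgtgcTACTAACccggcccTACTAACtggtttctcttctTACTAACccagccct

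At least 6 copies were found in 3 of 18930 long noncoding transcripts (0.0158%), and 2 of these 3 were Miat transcripts. Single copies are common, with at least 1 in 716 transcripts (3.78%). Gas5 (ENSMUSG00000053332, chr1:161034422-161038539, plus strand) is known to begin with a run of pyrimidines after a C, as the messenger RNAs of ribosomal proteins do, and its first exon is given with the opening CTTTC in capitals.

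Gas5 (chr1:161035166-161035194, plus strand): CTTTCggagctgtgcggcattctgagcag

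Of the 25 annotated Gas5 transcripts, 4 started with CTTTC, against 38 of all 18930 (0.201%). Sox2ot (ENSMUSG00000105265, chr3:34104270-34682619, plus strand) and Pantr1 (ENSMUSG00000060424, chr1:42590782-42694842, minus strand) hold no element shown here. Rmst (ENSMUSG00000097348) is given without a position, since 2 of its 14 transcripts matched that annotation.

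The plot of each library's level shows the pattern that the comparisons below take up. Levels of a gene are given as CPM scaled by TMM factors, which correct for library composition, and differences as log2 fold changes from edgeR's quasi-likelihood test with Benjamini-Hochberg adjustment over all genes tested. All 7 RNAs passed the filter on low counts, as 15706 of 45792 genes did. Over the 3 groups together, 6 of the 7 differed at an adjusted p under 0.05 (71.6% of all genes tested did), with adjusted p-values from 4.56e-06 for Sox2ot to 0.0288 for Rmst, and 0.755 for Gas5 (edgeR). Rmst passed the filter through the group in which it was highest, as given below, so that its call is no support for this count.

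**Figure D1:**
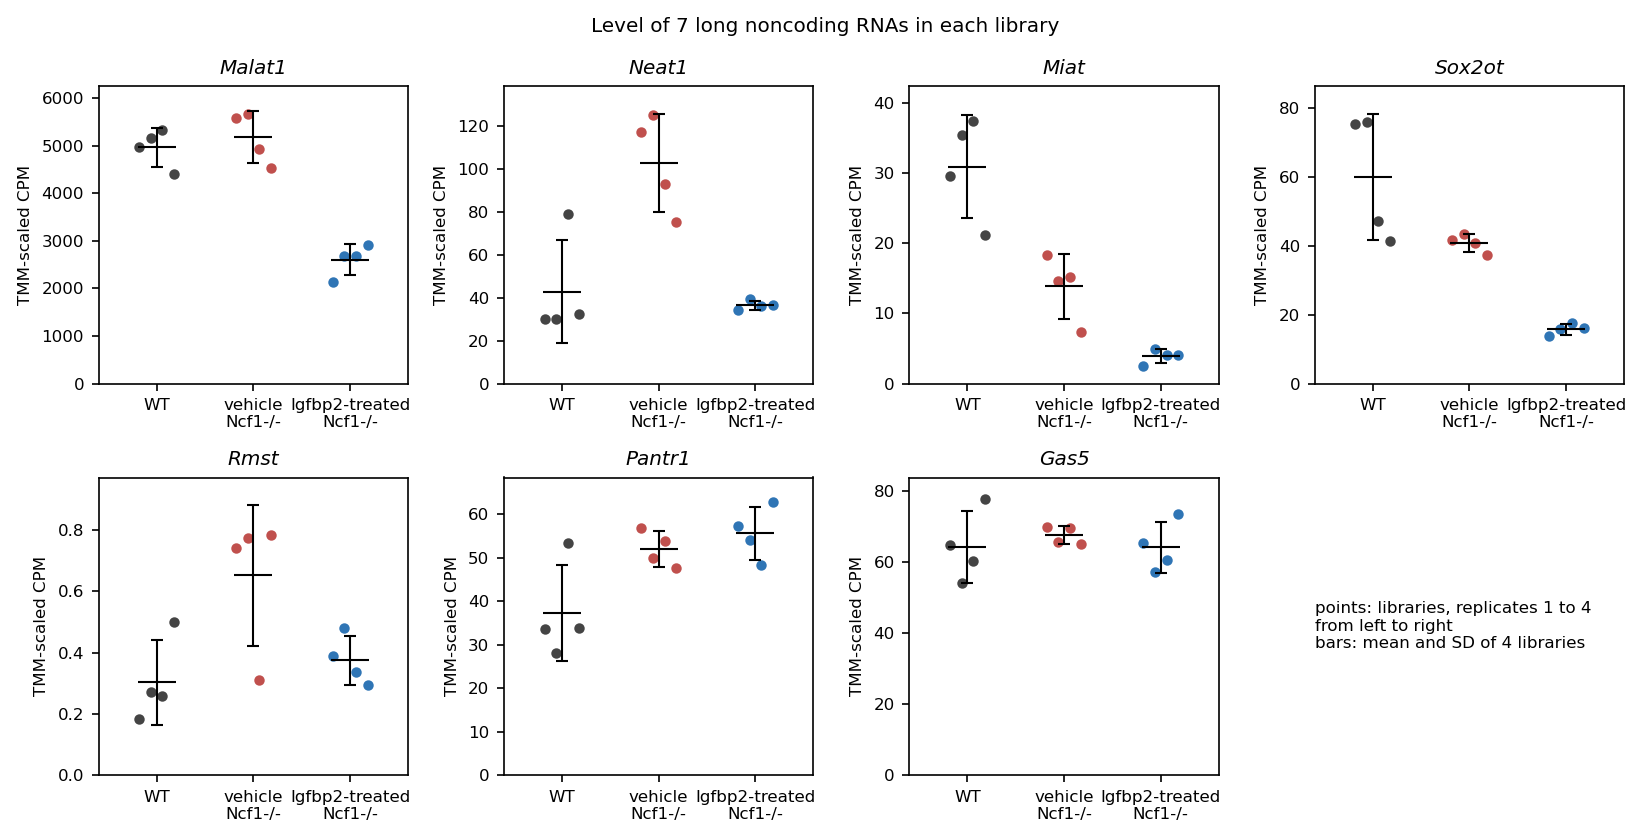
Each panel plots 1 RNA, with TMM-scaled CPM on a linear axis from 0 against the 3 groups, 1 point per library (replicates 1 to 4 from left to right), and the mean and SD of 4 libraries as bars. Malat1, Neat1, Miat and Sox2ot are lower in all 4 Igfbp2-treated libraries than in any vehicle-treated library, the mean of Neat1 is highest in vehicle-treated Ncf1-/-, and Gas5 stays between 54.0 and 77.9 CPM throughout.

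Both nuclear body RNAs, Malat1 and Neat1, were lower with Igfbp2 than with vehicle, and Neat1 was higher with loss of Ncf1. Malat1, which influences alternative splicing, stood at 4964, 5167, 5324 and 4399 CPM in the WT libraries. The vehicle-treated Ncf1-/- libraries gave 5583, 5669, 4934 and 4531 CPM. The Igfbp2-treated ones gave 2138, 2691, 2682 and 2910 CPM. The first groups overlapped, whereas each Igfbp2-treated library was below all 8 others. The mean of 5179 ± 543 CPM (SD, n = 4) in vehicle-treated Ncf1-/- was within the spread of the 4964 ± 404 in WT, the log2 fold change being 0.06 (SE 0.14, 95% interval -0.20 to 0.33, edgeR adjusted p = 0.722). With Igfbp2 the mean was 2605 ± 329 CPM, 1.99-fold lower than with vehicle (log2 fold change -0.99, SE 0.14, edgeR adjusted p = 0.000910). It was 1.91-fold below WT (-0.93, SE 0.14, edgeR adjusted p = 6.95e-05).

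Neat1 stood at 30.0, 30.1, 78.8 and 32.3 CPM in the WT libraries, replicate 3 being far above the rest. Vehicle-treated Ncf1-/- libraries gave 117, 125, 92.7 and 75.3 CPM, so that the groups overlapped only between WT replicate 3 and vehicle-treated replicate 4. Igfbp2-treated libraries lay close together, at 34.2, 39.1, 36.0 and 36.5 CPM, and below every vehicle-treated library. The rise with loss of Ncf1 was 2.38-fold, from 42.8 ± 24.0 to 102 ± 22.7 CPM (log2 fold change 1.25, SE 0.28, edgeR adjusted p = 0.00190), and without WT replicate 3 the log2 fold change was 1.73 (edgeR adjusted p = 4.12e-07). The fall with Igfbp2, to 36.4 ± 2.02 CPM, was 2.81-fold (log2 fold change -1.49, SE 0.28, edgeR adjusted p = 0.00356). Igfbp2-treated Ncf1-/- and WT did not differ at the threshold (log2 fold change -0.24, 95% interval -0.79 to 0.31, edgeR adjusted p = 0.475), and the sign of that difference was set by WT replicate 3, without which it was 0.25 (edgeR adjusted p = 0.154).

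Miat fell in both steps. It stood at 29.6, 35.5, 37.5 and 21.2 CPM in WT, at 18.3, 14.6, 15.2 and 7.39 CPM in vehicle-treated Ncf1-/- and at 2.55, 4.87, 4.11 and 4.12 CPM in Igfbp2-treated Ncf1-/- NSCs. None of the 3 groups overlapped, and counts ran from 46 to 86 in the lowest group and from 381 to 1306 in WT. The mean fell 2.24-fold with loss of Ncf1, from 30.9 ± 7.30 to 13.9 ± 4.62 CPM (log2 fold change -1.16, SE 0.25, edgeR adjusted p = 0.00160). It fell a further 3.54-fold with Igfbp2, to 3.91 ± 0.977 CPM (log2 fold change -1.82, SE 0.28, edgeR adjusted p = 0.00139). Igfbp2-treated NSCs thus held 7.91-fold less Miat RNA than WT (log2 fold change -2.98, SE 0.28, edgeR adjusted p = 1.97e-06), the largest fold difference among the 7.

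Of the RNAs beside neural transcription factor genes, Sox2ot also fell in both steps. Its WT libraries gave 75.5, 76.1, 47.4 and 41.5 CPM, with replicates 3 and 4 near the vehicle-treated libraries at 41.6, 43.5, 41.0 and 37.4 CPM. The Igfbp2-treated libraries gave 13.7, 15.8, 17.6 and 16.2 CPM and overlapped neither group. From 60.1 ± 18.3 CPM in WT, Sox2ot fell 1.47-fold to 40.9 ± 2.55 with loss of Ncf1 (log2 fold change -0.56, SE 0.17, edgeR adjusted p = 0.0140). That call was lost when libraries were scaled by their totals alone (-0.37, edgeR adjusted p = 0.0801) and on log2(TPM + 1) (-0.37, limma adjusted p = 0.105). The fall with Igfbp2 to 15.8 ± 1.62 CPM was 2.58-fold (log2 fold change -1.37, SE 0.18, edgeR adjusted p = 0.000765), and the level was 3.79-fold below WT (-1.92, SE 0.18, edgeR adjusted p = 1.83e-06).

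Pantr1, transcribed in the opposite direction from the gene of the transcription factor Pou3f3 and 925 bases from it, went the other way. WT libraries gave 33.6, 28.0, 53.4 and 33.9 CPM, vehicle-treated ones 56.8, 49.8, 53.7 and 47.6 CPM, and Igfbp2-treated ones 57.2, 54.0, 48.3 and 62.7 CPM. WT replicate 3 alone among the WT libraries reached the range of the Ncf1-/- libraries, and the treated and untreated mutants overlapped. The rise from 37.2 ± 11.1 to 52.0 ± 4.06 CPM with loss of Ncf1 was 1.39-fold (log2 fold change 0.48, SE 0.16, edgeR adjusted p = 0.0235). It passed no longer when WT replicate 1, 2 or 4 or vehicle-treated replicate 1 or 3 was left out (0.34 to 0.45, edgeR adjusted p from 0.0502 to 0.0715), and was 0.71 without WT replicate 3 (edgeR adjusted p = 7.02e-05). With Igfbp2 the mean of 55.6 ± 6.01 CPM differed by 0.10 on the log2 scale (95% interval -0.22 to 0.41, edgeR adjusted p = 0.689). It was 1.49-fold above WT (0.57, SE 0.16, edgeR adjusted p = 0.00809).

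Rmst, which takes part in neurogenesis with Sox2, was near the lower end of what these libraries could measure. The expected counts, rounded, were 4, 5, 9 and 9 in WT, 17, 16, 7 and 21 in vehicle-treated and 7, 8, 7 and 6 in Igfbp2-treated Ncf1-/- libraries. Vehicle-treated replicate 3 was among the Igfbp2-treated values and the other 3 vehicle-treated libraries were above every other library. With loss of Ncf1 it rose 2.20-fold, or 1.14 on the log2 scale (SE 0.36, edgeR adjusted p = 0.0168), and without WT replicate 1 this was 0.97 (edgeR adjusted p = 0.0516). Without vehicle-treated replicate 1 or 4, Rmst did not pass the filter on low counts and was not tested. That it was tested thus rested on the group in which it was highest. With Igfbp2 the difference was -0.81 (95% interval -1.52 to -0.10, edgeR adjusted p = 0.117), and without vehicle-treated replicate 3 it was -1.08 (edgeR adjusted p = 0.0423).

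Gas5 did not pass the test in any comparison with TMM factors. WT libraries gave 64.8, 54.0, 60.2 and 77.9 CPM, vehicle-treated ones 70.0, 65.7, 69.6 and 65.1 CPM, and Igfbp2-treated ones 65.3, 57.2, 60.5 and 73.5 CPM, all within 1 overlapping range. The log2 fold change was 0.07 with loss of Ncf1 (95% interval -0.14 to 0.29, edgeR adjusted p = 0.584) and -0.08 with Igfbp2 (95% interval -0.29 to 0.14, edgeR adjusted p = 0.642). Scaled by library totals alone, which moved the median of all genes to -0.23 in the second comparison, Gas5 passed at -0.35 (edgeR adjusted p = 0.0192), or -0.11 relative to that median. It also passed with loss of Ncf1 on that scaling (0.25, edgeR adjusted p = 0.0492), and with Igfbp2 on log2(TPM + 0.1) (-0.39, limma adjusted p = 0.0498).

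The calls among the 7 were read against those among all genes. Between vehicle-treated Ncf1-/- and WT, 5 of 7 were called (57.2% of all genes tested were), with Neat1, Rmst and Pantr1 higher (28.9% of genes) and Miat and Sox2ot lower (28.2%). The call of Rmst is no support for this count, since Rmst was tested through the group in which it was highest. With a mean of at least 5 CPM required, where Rmst was not tested, 4 were called. Without WT replicate 1, 3 were called. Without vehicle-treated replicate 1, 3 were called as well, but Rmst then did not pass the filter on low counts and was not tested. Groups failed to overlap for 1 of 7, Miat (51.2% of genes). Between the treatments, 4 of 7 were called (25.0% of genes) and all 4 were lower (10.7%), with no overlap of groups for the same 4 (34.1%). Genes that fell further than Malat1 in that comparison made up 4.35% of those tested, further than Sox2ot 1.67%, further than Neat1 1.10% and further than Miat 0.446%. Between Igfbp2-treated Ncf1-/- and WT, 4 of 7 were called (62.4% of genes), Malat1, Miat and Sox2ot lower (30.8%) and Pantr1 higher (31.6%), and the 3 that were lower showed no overlap (54.3%).

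The 4 falls with Igfbp2 passed in every alternative run (21 each, among them DESeq2, other scalings, each library left out and the replicate number as a block). Their log2 fold changes ranged from -1.35 to -0.93 for Malat1, from -2.31 to -1.38 for Neat1, from -2.09 to -0.97 for Miat and from -1.80 to -1.33 for Sox2ot, with highest adjusted p-values of 0.00494, 0.0145, 0.0187 and 0.00425. In bulk RNA, fewer cells of a type and less RNA per cell cannot be told apart.

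**Figure D2:**
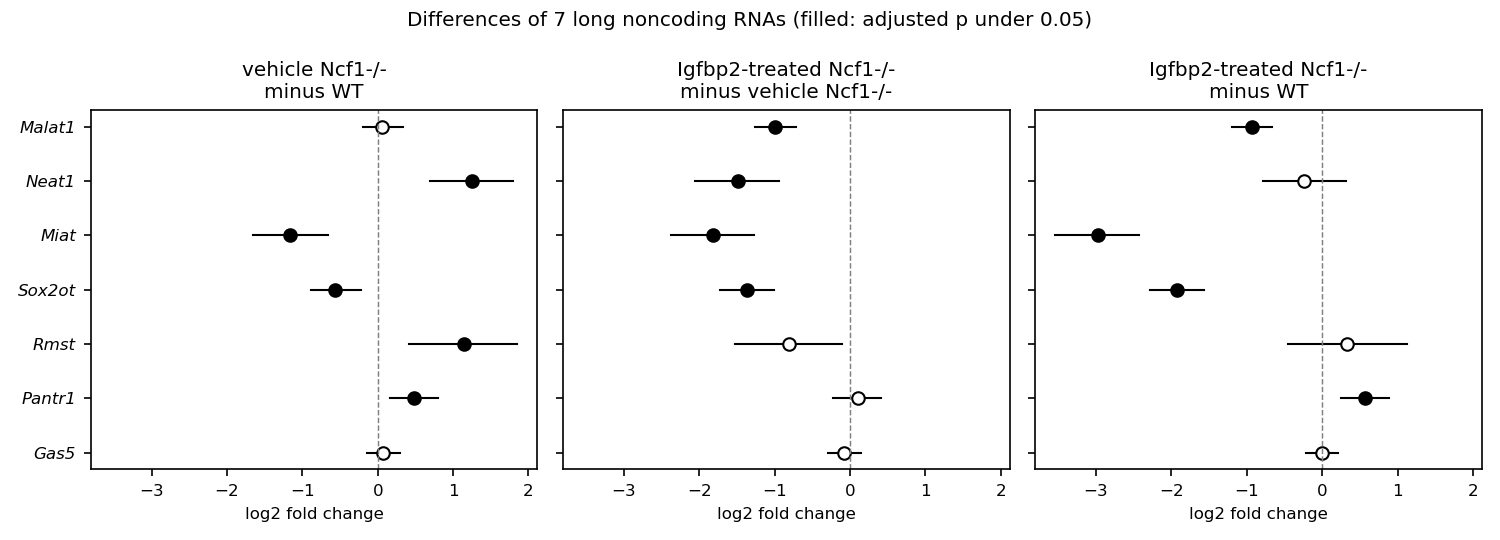
Points are log2 fold changes of the 7 RNAs from edgeR with approximate 95% intervals as lines, in 1 panel per comparison, filled where the adjusted p was under 0.05. With Igfbp2 (middle panel) Malat1, Neat1, Miat and Sox2ot lie between -1.82 and -0.99, while the intervals of Pantr1 and Gas5 include 0.

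The falls with Igfbp2 took place among many long noncoding RNAs. Of 1674 other genes that GENCODE M21 classes as long noncoding and that could be tested, 523 (31.2%) were called lower with Igfbp2 and 20 (1.19%) higher, with a median log2 fold change of -0.61. Among the 14026 genes tested that GENCODE M21 does not class as long noncoding, 1158 (8.26%) were lower and 2218 (15.8%) higher, with a median of 0.07. Long noncoding RNAs whose identifiers are not in that annotation fall in this second class, Rmst among them. Between vehicle-treated Ncf1-/- and WT the long noncoding genes were called higher (16.4%) and lower (15.2%) about equally, with a median of -0.01. This class was counted after values of the 7 had been seen. In Igfbp2-treated Ncf1-/- against WT, 752 (44.9%) of the long noncoding genes were called lower and 144 (8.60%) higher, with a median of -0.63. Of the other genes 29.1% were lower and 34.4% higher. The higher share of short structural RNAs and the shorter fragments of the Igfbp2-treated libraries went with the falls between the treatments. Against WT, the exact permutation test gave p = 0.314 for that share and p = 0.400 for the fragment length. The part of either was not tested.

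**Figure D3:**
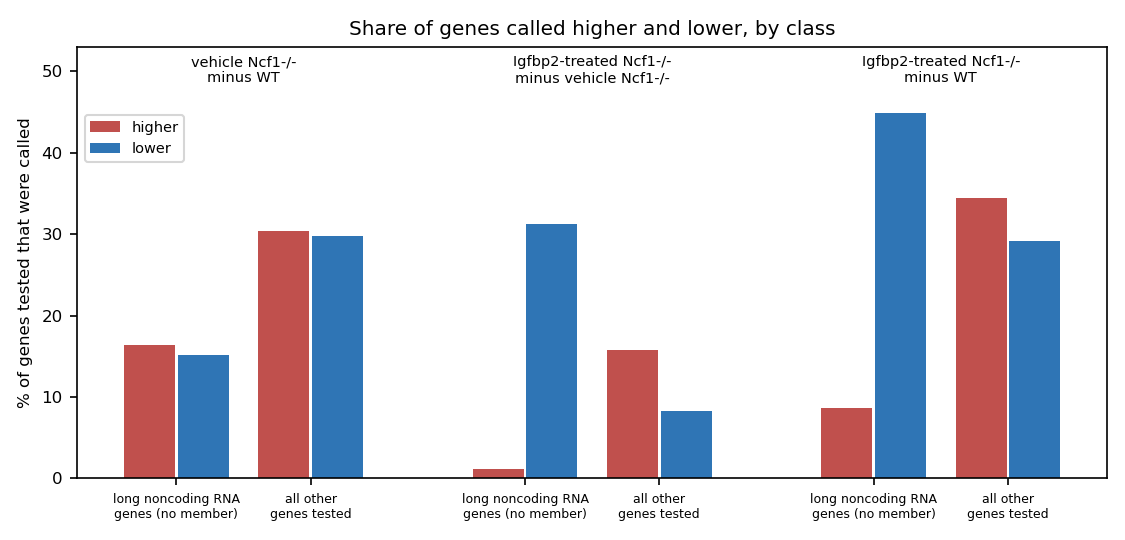
Bars give the percentage of genes tested that edgeR called higher (red) or lower (blue) at an adjusted p under 0.05, in each comparison. The classes are genes that GENCODE M21 classes as long noncoding, other than the 7, and all genes that it does not. Between the treatments 31.2% of the long noncoding genes and 8.26% of the others were lower.

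Among 25 other named long noncoding RNAs that passed the filter, 2 were higher and 11 lower with Igfbp2 (14.2% and 10.7% of all genes were). Their median log2 fold change was -0.35 against 0.04 over all genes tested. The genotype comparison gave 4 higher (Pvt1, Dleu2, Peg13 and Six3os1) and 9 lower, where 28.9% and 28.2% of all genes were, with a median of -0.22 against 0.02. Pvt1, beside the Myc gene, had the smallest adjusted p among those that rose (10.6 to 26.3 CPM, log2 fold change 1.31, edgeR adjusted p = 6.53e-06), and stood at 29.9 CPM with Igfbp2. Dleu2, the host of the microRNAs miR-15a and miR-16-1, rose with loss of Ncf1 (9.87 to 15.2 CPM, edgeR adjusted p = 0.00114) and fell with Igfbp2 to 7.43 CPM (-1.03, edgeR adjusted p = 0.000696). Nkx2-2os, transcribed opposite the oligodendrocyte regulator Nkx2-2, was lower with loss of Ncf1 (2.50 to 0.927 CPM, edgeR adjusted p = 0.000203), as was 2900097C17Rik (117 to 64.7 CPM, edgeR adjusted p = 1.63e-05). The 2 higher with Igfbp2, named after their values were seen, were 2900097C17Rik (91.4 CPM, 0.50, edgeR adjusted p = 0.00565) and Rmrp, the RNA of RNase MRP (2861 to 4731 CPM, 0.73, edgeR adjusted p = 0.0225).

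Genes of the proteins that make up the nuclear bodies of Malat1 and Neat1 were counted next. Of 18 nuclear speckle proteins, 9 were higher and 1 lower with loss of Ncf1 (28.9% and 28.2% of all genes were, median log2 fold change 0.26 against 0.02 over all genes). None was higher and 8 were lower with Igfbp2 (14.2% and 10.7% of all genes were, median -0.29 against 0.04). The SR proteins, which bind exons and direct splice site choice, made up most of these. Srsf5 went from 115 CPM in WT to 189 in vehicle-treated and 130 in Igfbp2-treated Ncf1-/- (0.72, edgeR adjusted p = 3.77e-05, then -0.54, edgeR adjusted p = 0.00283). Srsf7 rose from 42.3 to 76.9 CPM (0.86, edgeR adjusted p = 4.56e-05) and stood at 63.1 with Igfbp2 (-0.29, edgeR adjusted p = 0.0947). Srrm2, a large scaffold of speckles, was the 1 that fell with loss of Ncf1 (630 to 472 CPM, -0.42, edgeR adjusted p = 0.0113), and was at 462 CPM with Igfbp2.

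Of 16 paraspeckle proteins, 7 were higher and 1 was lower with loss of Ncf1 (28.9% and 28.2% of all genes were, median 0.17). Hnrnpa1 (350 to 516 CPM, 0.56, edgeR adjusted p = 9.59e-05) and Hnrnpk (516 to 720 CPM, 0.48, edgeR adjusted p = 0.000268), which bind pre-messenger RNA, rose, and Hnrnpr fell (128 to 104 CPM, -0.30, edgeR adjusted p = 0.00645). With Igfbp2 none was higher and 1 was lower, where 14.2% and 10.7% of all genes were. The 1 was Tardbp, named after its value was seen (153 to 110 CPM, -0.48, edgeR adjusted p = 0.0191). The core proteins Sfpq and Nono, which bind Neat1 along its length, had log2 fold changes of -0.15 (edgeR adjusted p = 0.417) and -0.12 (edgeR adjusted p = 0.333) with Igfbp2, beside -1.49 for Neat1. Rpph1, the RNA of RNase P, which cuts the 3′ ends of Malat1 and the long Neat1 transcript, was chosen after its values were seen. It stood at 8544 ± 1809 CPM in WT, 5338 ± 1105 in vehicle-treated and 9516 ± 2374 in Igfbp2-treated Ncf1-/- NSCs (SD, n = 4), 0.83 higher with Igfbp2 on the log2 scale (edgeR adjusted p = 0.0179). This rise was not particular to Rpph1. Of the 5 short structural RNAs, Rpph1 among them, 4 were higher with Igfbp2 and none lower (median 0.83). Rn7s1 and Rn7s2, named after their values were seen, had identical values (0.87, edgeR adjusted p = 0.0189).

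Of 13 other snoRNA host genes tested, the class to which Gas5 belongs, 7 were higher and 1 lower with loss of Ncf1 (28.9% and 28.2% of all genes were). Their median was 0.51, beside 0.07 for Gas5. Snhg11 rose from 1.04 to 4.87 CPM (2.14, edgeR adjusted p = 0.000537) and Snhg5 from 8.10 to 13.1 CPM (0.69, edgeR adjusted p = 0.000664), while Snhg14 fell from 33.0 to 25.6 CPM (-0.37, edgeR adjusted p = 0.0325). With Igfbp2 none was higher and 5 were lower (14.2% and 10.7% of all genes were, median -0.41). The 5 were Snhg4 (-0.77), Snhg5 (-0.46), Snhg14 (-0.48), Snhg17 (-1.05) and Snhg20 (-0.65), of which all but Snhg5 and Snhg14 were named after their values were seen. The snoRNAs inside Gas5 could not be followed, since 3 of 10 were found among the symbols and none passed the filter. Spliced Gas5 is removed by nonsense-mediated decay, and of 14 factors of that pathway 4 were higher and 5 lower with loss of Ncf1 (median -0.14), near the 28.9% and 28.2% of all genes. Magoh (0.67, edgeR adjusted p = 0.000240) and Eif4a3 (0.29, edgeR adjusted p = 0.0129), both of the exon junction complex, rose with Upf3b and Smg9. Upf2 (-0.46, edgeR adjusted p = 0.00223) and the endonuclease Smg6 (-0.40, edgeR adjusted p = 0.00231) fell with Upf1, Smg1 and Casc3. With Igfbp2, Smg6 was higher (0.46, edgeR adjusted p = 0.00464) and Upf3b (-0.68, edgeR adjusted p = 0.00549) and Smg5 (-0.32, edgeR adjusted p = 0.0207) were lower, the latter pair named after their values were seen.

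The protein-coding neighbours did not share one pattern with the long noncoding RNA beside them. Sox2, the stem cell transcription factor whose gene lies inside Sox2ot on the same strand (chr3:34650405-34652461), went from 386 ± 15.9 CPM in WT to 197 ± 3.92 in vehicle-treated Ncf1-/- NSCs (log2 fold change -0.97, SE 0.07, edgeR adjusted p = 3.39e-07). With Igfbp2 it was at 214 CPM, between 199 and 233 (0.12, SE 0.07, edgeR adjusted p = 0.237), where Sox2ot differed by -1.37. Whether the counting used strand is not given in the sources used here, and reads from exons that both genes share cannot be told apart. Atp11b, further along, was at 26.7, 31.8 and 25.2 CPM in WT, vehicle-treated and Igfbp2-treated NSCs, higher with loss of Ncf1 (0.25, edgeR adjusted p = 0.0192) and lower with Igfbp2 (-0.33, edgeR adjusted p = 0.0127). Pou3f3, beside Pantr1, was at 226 ± 39.1, 231 ± 19.5 and 306 ± 22.4 CPM, with 0.03 for loss of Ncf1 (edgeR adjusted p = 0.846) and 0.41 for Igfbp2 (edgeR adjusted p = 0.0248).

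Around Malat1 and Neat1, Ltbp3, which binds latent TGF-beta, fell with loss of Ncf1 (128 ± 30.8 to 73.4 ± 5.37 CPM, -0.80, edgeR adjusted p = 0.000357). It rose with Igfbp2 to 142 ± 11.6 CPM (0.95, SE 0.14, edgeR adjusted p = 0.00128), while Malat1 and Neat1 fell. Slc25a45 was higher with loss of Ncf1 (2.39 to 4.65 CPM, 0.91, edgeR adjusted p = 0.0167) and at 4.65 CPM with Igfbp2. Frmd8 and Tigd3 passed in neither comparison (log2 fold changes of -0.12 and 0.20 with loss of Ncf1, and of 0.22 and -0.22 with Igfbp2). Around Gas5, Zbtb37, whose annotated 5′ start overlaps it on the other strand, fell with loss of Ncf1 (34.6 to 25.9 CPM, -0.41, edgeR adjusted p = 0.0131), and its difference with Igfbp2 was -0.07 (edgeR adjusted p = 0.705). Nedd1, the neighbour of Rmst, rose with loss of Ncf1 (16.1 to 31.6 CPM, 0.97, edgeR adjusted p = 1.08e-06). Crybb1, beside Miat, was at 1.21 to 1.26 CPM in all groups, and Cryba4 did not pass the filter.

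Compared per length, as TPM, the 7 RNAs spanned a wide range. Malat1 led in all groups, at 622 ± 78.7 TPM in WT, 620 ± 31.9 in vehicle-treated and 248 ± 55.7 in Igfbp2-treated Ncf1-/- NSCs (SD, n = 4). Among all genes its TPM ranked between 48 and 76 in WT, between 88 and 106 with vehicle and between 196 and 287 with Igfbp2. Gas5 and Pantr1 followed, at 114 ± 28.3 and 70.2 ± 26.7 TPM in WT, and their libraries overlapped in each group. Sox2ot came next at 23.2 ± 5.44, 17.4 ± 0.850 and 5.01 ± 1.24 TPM. Miat (4.23 ± 1.68) and Neat1 (3.99 ± 3.34) overlapped in WT, whereas in vehicle-treated Ncf1-/- Neat1 (9.73 ± 1.71) was above Miat (1.84 ± 0.538) without overlap, and with Igfbp2 it was again above (1.91 ± 0.495 against 0.445 ± 0.244). Rmst was lowest, at 0.195 ± 0.142, 0.682 ± 0.240 and 0.302 ± 0.262 TPM, and overlapped Miat with Igfbp2. TPM is a share of a fixed total, and the short structural RNAs took more of it in the Igfbp2-treated libraries, where the median gene was lower by 0.30 on the log2(TPM + 1) scale.

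**Figure D4:**
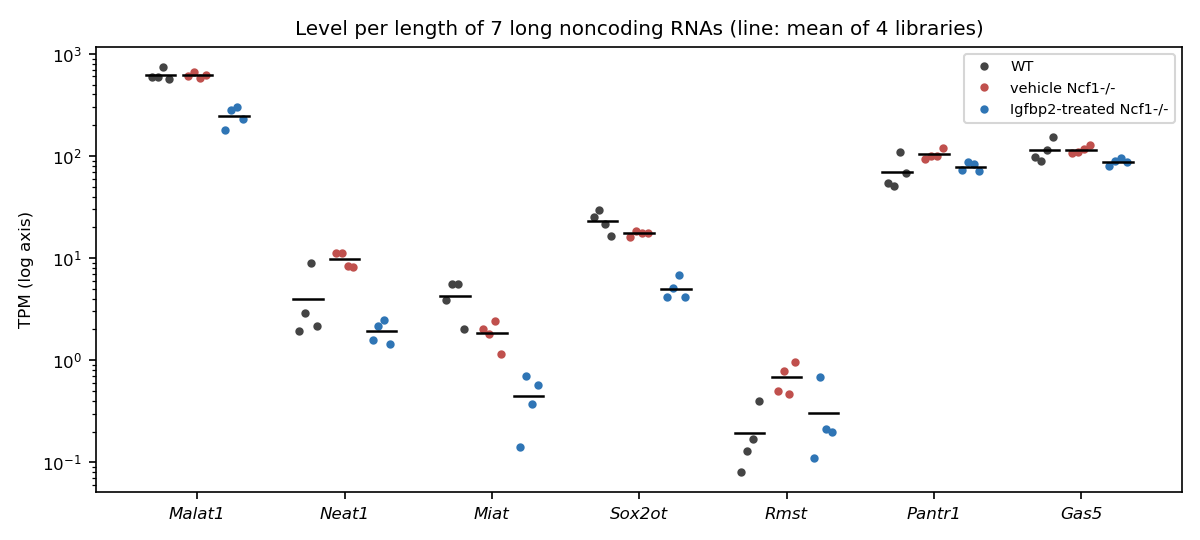
TPM of the 7 RNAs on a log axis, 1 point per library in 3 group colours, with a line at the mean of 4 libraries. Malat1 is highest in each group and Rmst lowest, and Neat1 and Miat overlap in WT but not in vehicle-treated Ncf1-/- NSCs.

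The estimated mix of transcripts was compared through transcript length, by a test that 4 libraries per group could hardly pass. RSEM gives for each library a mean transcript length weighted by the estimated abundance of each isoform. Neat1 is annotated with transcripts of 20771, 3004 and 1030 bases. Its mean length was 10083, 7335, 7341 and 11413 bases in the WT libraries, 7284, 8267, 8138 and 8027 with vehicle, and 10345, 11142, 9463 and 11514 with Igfbp2. The Igfbp2-treated libraries were all above the vehicle-treated ones, by 2687 bases in the mean, and the WT libraries spanned both ranges.

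For Malat1 the vehicle-treated libraries, at 6354 ± 86.0 bases (SD, n = 4), were all above the WT libraries (5940 ± 302) and the Igfbp2-treated ones (5863 ± 114). For Gas5 they were at 613 ± 9.05 bases, again above WT (581 ± 21.9) and Igfbp2-treated libraries (555 ± 13.3). Each of these 5 differences without overlap had an exact permutation p of 0.0286, the smallest possible, and an adjusted p of 0.120 over 21 tests, so that none passed. Complete separation in 5 of 21 tests cannot give an adjusted p under 0.05 here, whatever its size. The test therefore does not decide whether these lengths differed. The other 16 comparisons overlapped. Fragment length, which bears on how RSEM assigns reads, differed between the treatments too (172 to 191 against 163 to 169 bases), and its part was not tested.

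**Figure D5:**
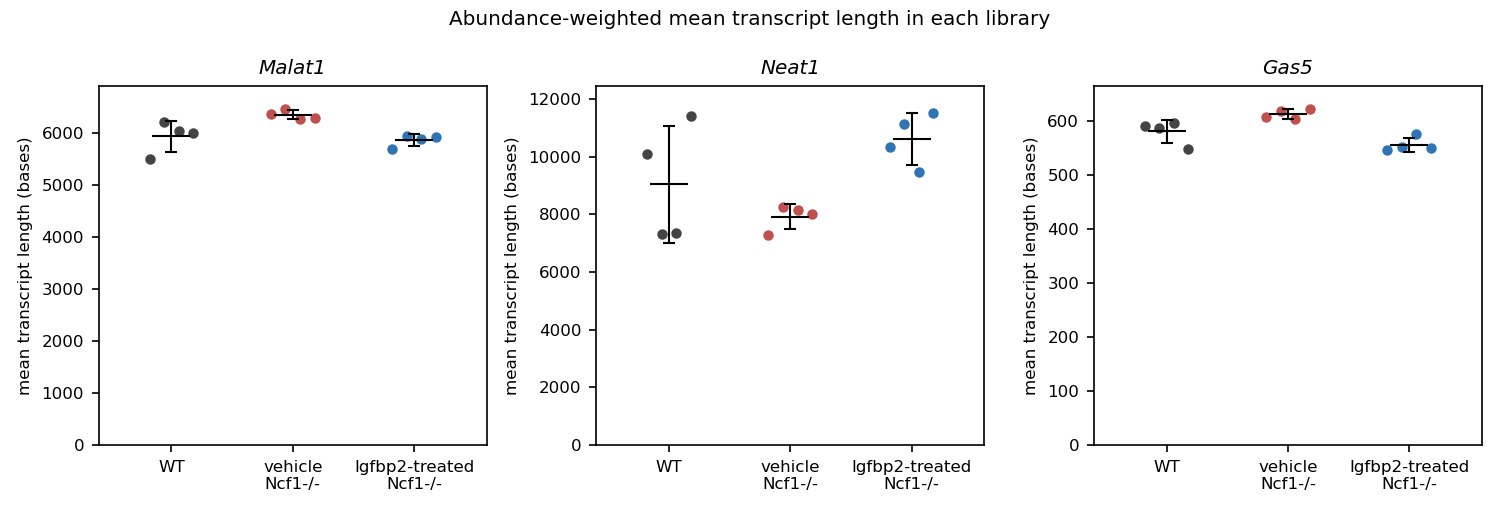
Mean transcript length in bases, weighted by estimated isoform abundance, of Malat1, Neat1 and Gas5 in each library on linear axes from 0, with the mean and SD of 4 libraries. Igfbp2-treated libraries lie above vehicle-treated ones for Neat1 and below them for Malat1 and Gas5.

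The genes whose profiles over the 12 libraries lay nearest to each RNA were found by the root mean square (RMS) difference of centred log2(CPM + 0.5), among genes that averaged 5 CPM or more. For Miat they were Hes5, a Notch target that keeps progenitors undifferentiated (147, 62.7 and 22.5 CPM in WT, vehicle-treated and Igfbp2-treated NSCs), and Myt1, a zinc finger factor of neural and oligodendrocyte precursors (118, 43.7 and 22.9 CPM), both at 0.40, where the SD of Miat itself was 1.27. For Sox2ot they were the AMPA receptor subunit gene Gria2 (114, 72.0 and 39.5 CPM, RMS 0.23) and 2810410L24Rik (RMS 0.24). Malat1 was nearest to the mitochondrial carrier gene Slc25a27 (6.42, 6.69 and 3.67 CPM, RMS 0.13) and 4833420G17Rik (RMS 0.14), and Neat1 to Gm3764 (65.8, 170 and 73.7 CPM, RMS 0.25) and Ankrd16 (11.2, 22.9 and 8.16 CPM, RMS 0.27). The nearest to Rmst were Rnf144b (RMS 0.15) and Spata7 (0.18), to Pantr1 Casp6 (0.10) and Rab13 (0.11), and to Gas5 Rnf34 (0.10) and Bex4 (0.11), where the own SDs were 0.32, 0.36 and 0.15. The 0.5 added to CPM compresses the profile of Rmst, which lies near that value, and so bears on which genes were nearest to it. The points share libraries and group means, and no test was made.

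Markers of other cell types moved with the genotype, beside the falls of Miat and Sox2ot. Of all genes tested, 28.9% were higher and 28.2% lower with loss of Ncf1, and 14.2% higher and 10.7% lower with Igfbp2. Of 12 oligodendrocyte lineage markers 10 were lower and 2 higher in vehicle-treated Ncf1-/- than in WT (median -3.31), with Myrf, the regulator of myelination, at 450 and 8.37 CPM and Sox10 at 501 and 47.8 CPM, while Olig1 (796 and 1450 CPM) and Olig2 (348 and 427 CPM) were higher. Of 8 neuronal markers 6 were lower (median -1.58), and their sum went from 630 to 809 CPM to 490 to 554 CPM. Of 6 astrocyte markers tested 5 were lower (Gfap, Aqp4, Slc1a3, S100b and Aldoc, median -1.74), and all 7 proliferation markers were higher (median 1.59). With Igfbp2, by contrast, 1 of 12 oligodendrocyte markers, Cspg4, was higher and none lower (sums of 2246 to 2333 against 2189 to 2357 CPM). The 6 astrocyte and 7 proliferation markers had medians of -0.09 and -0.18 in that comparison and did not pass in edgeR, and 3 of 8 neuronal markers were lower, Tubb3 (-0.61), Dcx (-0.83) and Dlx1 (-0.86), named after their values were seen. Neuronal markers then summed to 436 to 465 CPM, against 490 to 554 with vehicle. That sum was carried by Map2, named after its value was seen (means of 569, 480 and 425 CPM in WT, vehicle-treated and Igfbp2-treated NSCs). Map2 did not pass with Igfbp2 (-0.18, edgeR adjusted p = 0.158). Mesenchymal and vascular markers, of which 3 of 6 were higher with Igfbp2 (Col1a1, Col1a2 and Pdgfrb), summed to 22.1 to 25.4 against 9.89 to 12.8 CPM with vehicle and 13.6 to 30.0 in WT. The largest of them in both Ncf1-/- groups was Acta2, named after its value was seen (6.14 CPM with vehicle and 13.3 with Igfbp2, edgeR adjusted p = 0.134). Microglia markers summed to 1.34 to 1.88 CPM with Igfbp2 against 1.60 to 2.08 with vehicle. The part of any of these in the results for the 7 RNAs was not tested.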

How the data were processed

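RNA of 12 NSC cultures was sequenced after ribosomal depletion. The authors mapped reads with Bowtie2 to GRCm38 and quantified them with RSEM (versions not given in the sources used here), and deposited expected counts per gene without normalization, of which 15.9% are not whole. TPM and mean and effective transcript length (another, length-based unit) were made by RSEM, as the authors deposited them. The FPKM values deposited by the authors were not used. The authors' merged table holds a score derived from TPM, used only to pair identifiers with symbols.

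Counts were rounded and analysed in R 4.3.3 with edgeR 4.0.16 (filterByExpr, TMM, quasi-likelihood, 1 mean per group, 12 libraries in 1 fit). Calls are at a Benjamini-Hochberg adjusted p under 0.05, two-sided. Median SEs of a log2 fold change were 0.140 to 0.141. The script was tested on simulated data, which held neither the shifts in scaling nor the uneven spread of these libraries. Lengths were compared by exact permutation tests.

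The 7 RNAs, the gene lists and the tests were chosen with earlier results of these data known, so that the lists were chosen from general knowledge but not blind to these libraries. Genes named besides the 7 are the neighbours (some are not reported here), the 2 nearest profiles per RNA and, per list, the 2 called genes with the smallest adjusted p in each direction between vehicle-treated Ncf1-/- and WT. Genes chosen otherwise are marked.

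Alternatives were DESeq2 1.42.0, library totals, other filters, limma 3.58.1 on log2(TPM + 1), log2(TPM + 0.1) and TPM rescaled without short structural RNAs, pairs of groups, the replicate number as a block, and each library left out. The study describes same-numbered Ncf1-/- cultures as paired by animal, but their Y-linked RNA differs. Deviations from group means correlated at -0.0673 to 0.0328 in 4 same-numbered pairs and at -0.248 to 0.257 in 12 others, so the main fit has no block. The closest replicates differed by more than sampling noise. Groups follow the labels. P-values measure the spread between cultures.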

Additional observations from a re-analysis of the deposited data

Results flagged for a closer look

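Among 42 groups of 4 libraries (7 RNAs, 3 groups, level and mean transcript length), 3 held a library whose gap to its nearest neighbour exceeded Dixon's 95% critical value for 4 samples, as a share of the range. Chance alone flags about 1 in 20 such groups.

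Neat1 was at 78.8 CPM in WT replicate 3, against 30.0 to 32.3 in the other WT libraries (gap 0.953 of the range). That library also had the lowest oligodendrocyte marker sum of its group (3410 CPM) and the highest Vim level of its group (4569 CPM). Of all 12 libraries it had the highest astrocyte marker sum (11856 CPM), the lowest proliferation marker sum (334 CPM) and the largest total of expected counts (34086554). Rmst was at 0.309 CPM in vehicle-treated Ncf1-/- replicate 3, against 0.741 to 0.783 in the others (gap 0.910), on 7 counts. The mean transcript length of Gas5 was 575 bases in Igfbp2-treated Ncf1-/- replicate 3, against 546 to 551 (gap 0.830).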

How the results depend on the processing

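Of 80 counts of RNAs called under an alternative, 78 were within 1.5 times the main count. Leaving out 1 library gave 3 to 5 called for vehicle-treated Ncf1-/- against WT. Of 415 log2 fold changes, 383 kept direction and side of the threshold, 11 lost and 7 gained a call, and 14 changed sign, none of them called. The sign changes were, against WT, Malat1 with vehicle (-0.17 on rescaled TPM, -0.02 without WT replicate 4), Gas5 with vehicle (-0.12 on rescaled TPM, -0.02 to 0.15 without 1 library), Gas5 with Igfbp2 (0.02 with no filter, -0.14 to 0.03 without 1 library) and Neat1 with Igfbp2 (-0.43 to 0.25 without 1 library, 0.25 without WT replicate 3). Pantr1 between the treatments was -0.18 with library totals, -0.40 on log2(TPM + 1), -0.41 on log2(TPM + 0.1) and -0.08 on rescaled TPM, and its call against WT with Igfbp2 was lost on log2(TPM + 1) (0.21, limma adjusted p = 0.360) and log2(TPM + 0.1) (0.22, limma adjusted p = 0.354). The cause was not tested. Rmst fell out at a mean of at least 5 CPM and without vehicle-treated replicate 1 or 4. In the fits of 2 groups alone it was tested only for vehicle-treated Ncf1-/- against WT, and with the replicate block it was not tested. Between the treatments it passed with library totals (-1.08, edgeR adjusted p = 0.0328) and on log2(TPM + 1) (-0.38, limma adjusted p = 0.0311). By effective length, the Gas5 difference between treatments was -45.2 bases. The order of levels was the same in 21 of 21 cases per kilobase of effective length.

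All-gene splits moved with the scaling. With Igfbp2, 2238 genes were higher and 1685 lower with TMM factors, against 648 and 5258 with library totals, 200 and 6154 on log2(TPM + 1), 165 and 6354 on log2(TPM + 0.1), and 711 and 2451 on rescaled TPM. The median log2 fold change of all genes was 0.04, -0.23, -0.30, -0.42 and -0.10 in turn. With loss of Ncf1 the splits were 4545 and 4433, 6024 and 3159 (library totals), and 3437 and 4956 (rescaled TPM). Between Igfbp2-treated Ncf1-/- and WT they were 4964 and 4837, 4198 and 5475, and 3071 and 6828.

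With the replicate block, 4 RNAs were called between the treatments, as without it, Malat1 at -1.04, Neat1 at -1.51, Miat at -1.82 and Sox2ot at -1.41. The block changed no call. Depth limits Rmst, at 4 to 21 counts, most.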
